A study of Arabidopsis thaliana with 8 samples.

Results

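Anthocyanin genes of *Arabidopsis thaliana* are switched by complexes of an R2R3-MYB activator, a bHLH protein and a WD40 protein, and 10 genes of these complexes and of their R3-MYB inhibitors were followed here. They were picked by gene identifier, as known members of the complexes and with earlier results of these data known, and all 10 were found among the 34133 genes in the tables. They are the activators *MYB75* (also called *PAP1*, AT1G56650), *MYB90* (*PAP2*, AT1G66390), *MYB113* (AT1G66370) and *MYB114* (AT1G66380), the bHLH genes *TT8* (AT4G09820), *GL3* (AT5G41315) and *EGL3* (AT1G63650), the WD40 gene *TTG1* (AT5G24520), and the inhibitors *MYBL2* (AT1G71030) and *CPC* (AT2G46410). The question was which of them were higher or lower together with the enzymes of the pathway, and which were not.

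Imazethapyr is a herbicide that inhibits acetolactate synthase, while the ROS1 protein is an enzyme of active DNA demethylation. There were 4 groups of 2 RNA-sequencing libraries each, all of accession Columbia-0 and about 3 weeks old: wild type and *ros1* plants without herbicide (WT control and *ros1* control), and the same genotypes collected 48 h after 10.6 g ha-1 imazethapyr sprayed with the adjuvant Dash at 0.5% v/v (WT IM and *ros1* IM). Each library was made from the entire rosettes of 2 plants. The *ros1* line is a single hypomorphic T-DNA allele (SALK_064264) with its insertion in the 5′-UTR. Whether the controls received Dash is not stated, so adjuvant and herbicide cannot be told apart.

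The tables held 1 value per gene and group, in FPKM (fragments counted on a transcript, scaled by its length and by the mapped fragments of the library), pooled by the authors over the 2 libraries. They held no value per library, so no spread between libraries or standard error can be given, and no depth. The authors' own p-values and q-values, also in the tables, were not used, so every value below stands without a test. A difference is that of log2(FPKM + 1), which understates the change of low genes. A gene was called higher or lower where this difference passed 1 (2-fold), provided that its FPKM reached 1 in a group compared. Folds are plain ratios of the FPKM values. *ROS1* itself stood at 24.998 in WT control, 16.7 in WT IM, 19.0 in *ros1* control and 4.08 in *ros1* IM, so the control groups differed little in the mutated gene. All *ros1* IM values come from tables of genes that the authors' own test had selected, and *MYB113*, *MYB114* and *EGL3* have no value there. The summed FPKM of 4 leaf markers was 34733 in WT control, 7765 in WT IM, 33415 in *ros1* control and 1374 in *ros1* IM. Leaf genes were thus lower in both herbicide groups, which moves with the comparisons below, and their part in the results was not tested. In whole rosettes, fewer cells of a type and less RNA per cell cannot be told apart. Of 3 root markers, *RHD6* and *RSL4* were listed at 0 in the 3 groups with a value, while *PYK10* stood at 50.003, 15.7, 67.2 and 7.74 in the 4 groups. The 4 flower markers summed to 1.06 to 1.17 FPKM in the groups where all were listed, and *SEP3*, the one listed in *ros1* IM, stood at 1.65 there against 0.488 to 0.830. In the other groups the 2 seed markers were listed at 0.

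In these complexes the MYB protein gives the promoter specificity, the bHLH protein binds both the MYB and the WD40 protein, and the WD40 protein serves as a platform. The early enzymes, from chalcone synthase onwards, also feed the flavonols and respond to other MYB proteins, while the late enzymes, from dihydroflavonol reductase onwards, depend on the complexes. Small R3-MYB proteins such as CPC occupy the bHLH partner without activating transcription, and MYBL2 in addition carries a repression motif. Anthocyanins colour the leaves of stressed rosettes, and the bHLH and WD40 genes also serve in trichomes, root hairs and the seed coat.

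The 4 activator genes are near copies of one another, which bears on how reads are assigned to them. *MYB113* (chr1:24753589-24754761), *MYB114* (chr1:24757298-24758953) and *MYB90* (chr1:24763941-24765541) lie in a row on the plus strand of chromosome 1 of TAIR10.1. By the gene bounds in the deposited data, which differ from these, the gaps were 2809 and 5467 bases. *MYB75* lies apart on the same chromosome (chr1:21233555-21235292, minus strand). Each has 3 exons. The coding sequence of *MYB90* was identical to that of *MYB114* at 91.4% of aligned bases, to that of *MYB75* at 84.3% and to that of *MYB113* at 82.6%. The coding sequence of *MYB114* in RefSeq is shorter, at 420 bases against 747 for *MYB75*. The first 90 coding bases of the 4 genes are shown to make this likeness visible, with capitals at the bases that differ from *MYB75* at the same position.
MYB75: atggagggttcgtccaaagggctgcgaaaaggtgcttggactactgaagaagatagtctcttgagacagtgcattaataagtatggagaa
MYB90: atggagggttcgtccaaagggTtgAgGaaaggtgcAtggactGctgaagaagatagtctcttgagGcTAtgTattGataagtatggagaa
MYB113: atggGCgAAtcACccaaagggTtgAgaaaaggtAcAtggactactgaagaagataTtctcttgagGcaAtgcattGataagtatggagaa
MYB114: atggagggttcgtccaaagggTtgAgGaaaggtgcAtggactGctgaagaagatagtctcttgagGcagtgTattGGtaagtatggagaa
*MYB90* differed from *MYB75* at 10 of these 90 bases, *MYB113* at 14 and *MYB114* at 9. No window of 100 transcript bases, the read length used, was shared between any pair of the 4 genes, either exactly or with 2 mismatches. The same held for the pairs among *TT8*, *GL3* and *EGL3* and for *MYBL2* with *CPC*. *GL3* (chr5:16529090-16533287, plus strand) is overlapped by AT5G06145 on the minus strand, and since the library kit does not mark the strand, reads of the 2 genes cannot be told apart.

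Among the activators, *MYB75* had the highest level in unsprayed wild type. *MYB75* stood at 14.1 FPKM in WT control, 105 in WT IM, 1.43 in *ros1* control and 5.45 in *ros1* IM. Both *ros1* groups were thus below WT control, with or without herbicide. *MYB90* stood at 1.14, 98.1, 0.257 and 28.1 FPKM in the same order. It was low in both controls, and its *ros1* IM level lay between WT control and WT IM. *MYB113* was scarce, with 0.741 FPKM in WT control, 2.20 in WT IM and 1.24 in *ros1* control. *MYB114* was scarcer still in both controls, with 0.287 in WT control, 1.52 in WT IM and 0.297 in *ros1* control. The activator pool was therefore made of *MYB75* and *MYB90* in WT IM, where they gave 50.8% and 47.4% of the summed 207 FPKM of the 4 genes. In WT control *MYB75* alone gave 86.7% of a sum of 16.3 FPKM. In *ros1* control the sum was 3.22 FPKM, of which *MYB75* gave 44.2% and *MYB113* 38.6%.

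The bHLH genes did not share a pattern. *TT8*, the bHLH gene best known from seed coat and anthocyanin pigmentation, stood at 2.34 FPKM in WT control, 30.0 in WT IM, 0.927 in *ros1* control and 0.511 in *ros1* IM. Only WT IM was high. *EGL3*, which acts in trichomes and in anthocyanin synthesis, stood at 3.99 in WT control, 0.725 in WT IM and 3.57 in *ros1* control. Here WT IM was the low group. *GL3*, a close relative of *EGL3* (81.3% identical coding bases), stayed low, at 1.84, 1.101, 0.950 and 0.397 FPKM in the 4 groups. *TT8* accordingly made up 28.6% of the summed FPKM of the 3 bHLH genes in WT control, 94.3% in WT IM and 17.0% in *ros1* control, while *EGL3* made up 48.9%, 2.28% and 65.5%. *TTG1*, the shared WD40 gene, was the most even of the 7 regulators with 4 values, at 18.8, 17.1, 31.3 and 16.6 FPKM, with its highest level in *ros1* control.

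Both inhibitor genes were highest in WT IM, as *MYB75*, *MYB90* and *TT8* were. *MYBL2* stood at 1.86 FPKM in WT control, 17.0 in WT IM, 3.13 in *ros1* control and 2.51 in *ros1* IM. Its *ros1* levels differed little from each other. *CPC*, known for setting root hair and trichome patterns, stood at 3.63, 12.8, 1.77 and 0.893 FPKM. *MYBL2* gave 33.9% of the sum of the 2 inhibitor genes in WT control, 57.0% in WT IM, 63.9% in *ros1* control and 73.7% in *ros1* IM.

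**Figure D1:**
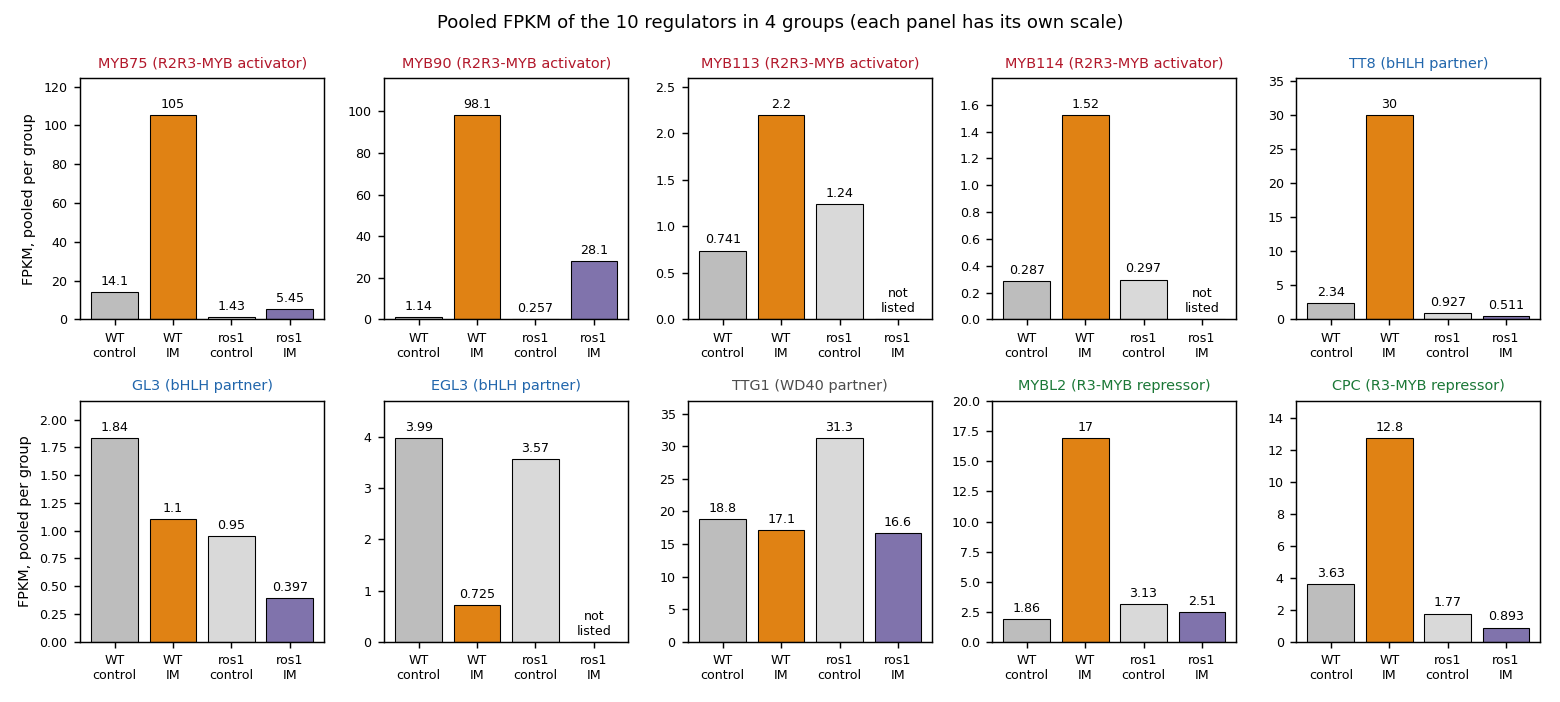
Pooled FPKM (vertical axis, a separate linear scale from 0 in each panel) of each regulator in the wild-type groups (control, then IM) and the *ros1* groups; 1 bar is 1 value pooled over 2 libraries, so there are no error bars. The WT IM bar is the highest for *MYB75* (105), *MYB90* (98.1), *TT8* (30.0), *MYBL2* (17.0) and *CPC* (12.8) and the lowest for *EGL3* (0.725), and 3 genes have no listed *ros1* IM value.

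**Figure D2:**
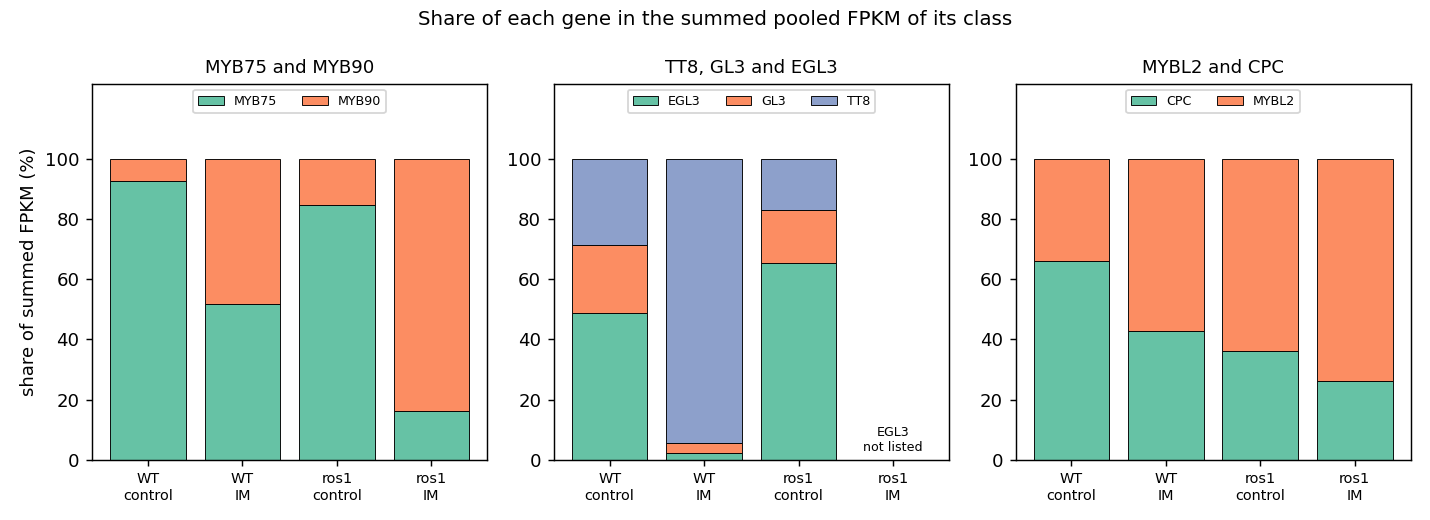
Share of each gene (% of summed FPKM, vertical axis) within *MYB75* and *MYB90* (left), the 3 bHLH genes (middle) and the 2 inhibitor genes (right), by group; the bHLH genes have no bar in *ros1* IM, where *EGL3* is not listed. *TT8* takes 94.3% of the bHLH sum in WT IM. *MYB90* takes 7.45% of the *MYB75* and *MYB90* sum in WT control, 48.2% in WT IM, 15.3% in *ros1* control and 83.8% in *ros1* IM.

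In wild type, imazethapyr went with higher levels of activators, of 1 bHLH gene and of both inhibitors at once. *MYB90* was 86.4-fold higher (difference 5.54), *TT8* 12.8-fold (3.22), *MYBL2* 9.13-fold (2.65), *MYB75* 7.47-fold (2.82) and *CPC* 3.53-fold (1.58). *EGL3* was 5.50-fold lower (-1.53). All 10 regulators passed the filter on low values, of which *MYB113* and *MYB114* passed through WT IM alone and *EGL3* through WT control alone. Of the 10, 5 were called higher and 1 lower, while 11.6% of the 18829 genes tested were higher and 15.6% were lower. *MYB90* held rank 22 from the highest among these genes, *TT8* rank 206, *MYB75* rank 288, *MYBL2* rank 337 and *CPC* rank 970. The differences of *MYB113* (0.88) and *MYB114* (0.97) missed the threshold, although their plain ratios were 2.97 and 5.31, and those of *GL3* (-0.43) and *TTG1* (-0.13) lay within it.

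Every enzyme of both pathway lists was higher in the same comparison. All 5 early enzymes were called higher, with a median difference of 1.75, and all 11 late enzymes, with a median of 3.18, beside a median of 0.01 over all genes. Flavonoid 3′-hydroxylase *TT7* went from 13.7 to 208 FPKM, *F3H* from 80.01 to 419, *CHIL* from 94.8 to 321, and chalcone synthase *TT4* from 372 to 1216. Dihydroflavonol reductase *DFR* went from 31.1 to 478 FPKM, the glutathione transferase *GSTF12* (*TT19*), needed to bring anthocyanin to the vacuole, from 36.5 to 462, *LDOX* from 39.3 to 478, and the glucosyltransferase *UGT75C1* from 27.2 to 294. *MYB75*, *MYB90*, *TT8*, *MYBL2* and *CPC* thus stood on the same side as the enzymes, activators and inhibitors alike, and *EGL3* stood on the other. Of the 8 genes of the flavonol branch none was called higher and 2 were lower, beside 11.6% and 15.6% of all genes. Both counts are near those shares. The lower ones were flavonol synthase *FLS1*, from 125.4 to 59.97 FPKM, and the rhamnosyltransferase *UGT89C1*, from 144 to 59.9.

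In *ros1*, the 2 main activators were higher with imazethapyr, while *TT8* and both inhibitors were not. *MYB90* was 109-fold higher (difference 4.53) and *MYB75* 3.82-fold (1.41). *MYBL2* (-0.24), *CPC* (-0.55) and *TTG1* (-0.88) were below *ros1* control by less than the threshold. *TT8* went from 0.927 to 0.511 FPKM and *GL3* from 0.950 to 0.397, and neither reached an FPKM of 1 in either group. Of the 7 regulators with a value 5 passed the filter, *MYB90* through *ros1* IM alone and *CPC* through *ros1* control alone. Of these, 2 were called higher and 0 lower, where 18.0% of the 16403 genes tested were higher and 23.4% lower. The median over all genes was 0.10 in this comparison, so the 2 called differences stand by that much less against the bulk of the genes. These genes are a selected set, since *ros1* IM values were listed for selected genes alone.

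Most enzymes did not follow *MYB75* and *MYB90* in *ros1*. Of the 5 early enzymes 4 were lower with imazethapyr, where 23.4% of all genes tested were lower. They were *CHIL*, from 36.6 to 5.68 FPKM, *F3H*, from 43.7 to 11.8, *TT4*, from 153 to 43.8, and chalcone isomerase *TT5*, from 45.4 to 15.7. The remaining one, *TT7*, stood at 1.36 and 0.980. The median difference of the early enzymes was -1.78. Of the 11 late enzymes 2 were higher, a share close to the 18.0% of all genes, and none lower, with a median of -0.45. The higher ones were the glycosyl hydrolase family gene *BGLU10*, whose protein adds glucose to anthocyanins, from 16.4 to 127 FPKM, and the acyltransferase *3AT1*, from 3.14 to 9.81. The serine carboxypeptidase-like acyltransferase *SCPL10* (3.11 to 6.998) and the malonyltransferase *5MAT* (2.98 to 1.05) had the next differences in size, with opposite signs, and neither passed the threshold. By plain ratio, *SCPL10* (2.25) and *3AT2* (2.10) were also more than 2-fold higher, and *5MAT* (2.83) and *UF3GT* (2.21) more than 2-fold lower. *MYB90* and *MYB75* therefore stood on the other side from the early enzymes, while *TT8*, *MYBL2* and *CPC* lay near or below their *ros1* control levels, as most late enzymes did.

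**Figure D3:**
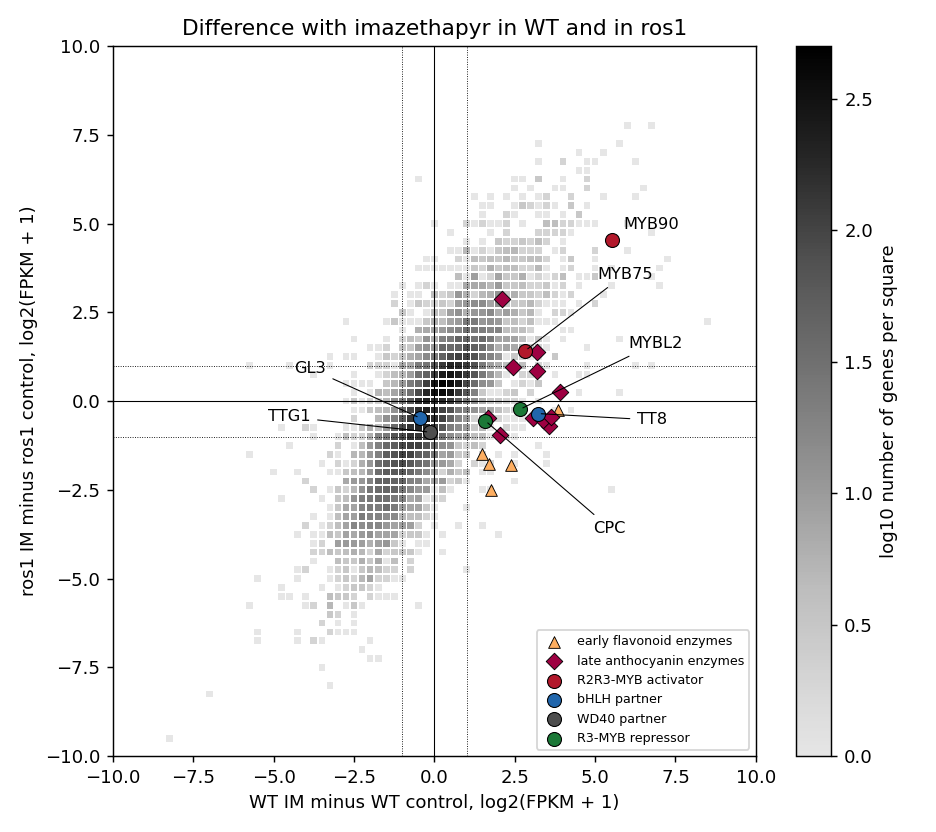
Difference of log2(FPKM + 1) with imazethapyr in wild type (horizontal axis) and in *ros1* (vertical axis); grey squares count the 15713 genes tested in both comparisons (darker is more genes, log10 scale), circles are the 7 regulators with 4 values, and triangles and diamonds are the early and late enzymes. Dotted lines mark the 2-fold threshold. *TT8*, *MYBL2* and *CPC* lie among the enzymes to the right of the threshold and near 0 or below on the vertical axis, and *MYB75* and *MYB90* lie above the threshold on both axes; *TT8* and *GL3* are drawn although their *ros1* values were under the filter.

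Without herbicide, *MYB75* was the one regulator called lower in *ros1*. Its *ros1* control level was 9.89-fold below that of WT control (difference -2.64, rank 212 from the lowest of 18799 genes). Of the 9 regulators that passed the filter, 1 was lower and 0 higher, where 8.02% of all genes tested were lower and 4.69% higher. *MYB114*, at 0.287 and 0.297 FPKM, did not pass, *MYB113* passed through *ros1* control alone, and *MYB90*, *TT8* and *GL3* passed through WT control alone. *TT8* (-0.79), *MYB90* (-0.76), *CPC* (-0.74) and *GL3* (-0.54) were lower by less than the threshold, *TTG1* (0.71), *MYBL2* (0.53) and *MYB113* (0.37) were higher by less than it, and *EGL3* lay at -0.13. The plain ratios of *MYB90* (4.41), *TT8* (2.52) and *CPC* (2.05) exceed 2 at these low levels, so the count of lower regulators depended on the pseudocount. It was 3 with a pseudocount of 0.1, where 10.3% of all genes were lower. The enzymes stood on the side of *MYB75*. Of the 5 early enzymes 3 were lower (median -1.28), among them *TT7*, from 13.7 to 1.36 FPKM, and of the 11 late enzymes 8 were lower (median -1.44), among them the xylosyltransferase *UF3GT*, from 15.4 to 1.06, and *DFR*, from 31.1 to 7.90.

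With herbicide, 5 regulators were lower in *ros1* than in wild type. *TT8* was 58.7-fold lower (difference -4.36), *MYB75* 19.3-fold (-4.04), *CPC* 14.3-fold (-2.86), *MYBL2* 6.77-fold (-2.36) and *MYB90* 3.49-fold (-1.77). *GL3* (-0.59) and *TTG1* (-0.04) lay within the threshold. By plain ratio *GL3* was 2.77-fold lower, and with a pseudocount of 0.1 it was called lower too. All 7 regulators with a value passed the filter, *TT8*, *GL3* and *CPC* through WT IM alone. Of the 7, 5 were lower and 0 higher, where 18.9% of the 16329 genes tested were lower and 11.2% higher. Counted from the lowest of these genes, *TT8* held rank 69, *MYB75* rank 89, *CPC* rank 332, *MYBL2* rank 625 and *MYB90* rank 1265. The order of the levels within *ros1* IM was *MYB90* (28.1), *TTG1* (16.6), *MYB75* (5.45), *MYBL2* (2.51), *CPC* (0.893), *TT8* (0.511) and *GL3* (0.397). Within WT IM it was *MYB75* (105), *MYB90* (98.1), *TT8* (30.0), *TTG1* (17.1), *MYBL2* (17.0), *CPC* (12.8), *MYB113* (2.20), *MYB114* (1.52), *GL3* (1.101) and *EGL3* (0.725), and with no spread at hand it cannot be said which neighbours differ.

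The enzymes were lower with them. Compared with WT IM, all 5 early enzymes were lower in *ros1* IM (median -5.04) and 10 of 11 late enzymes (median -4.74). Of all 16329 genes tested 18.9% were lower, and their median was 0.02. *TT7* and *UF3GT* passed the filter through WT IM alone, the group where they were high. *TT7* stood at 208 against 0.980 FPKM and *CHIL* at 321 against 5.68. *UF3GT* stood at 136 against 0.480 FPKM, *LDOX* at 478 against 6.54, *DFR* at 478 against 9.58 and *GSTF12* at 462 against 11.4. *BGLU10* was the late enzyme outside this count, at 68.4 against 127 FPKM. The ratio of *MYB90* to *MYBL2* in FPKM was 5.78 in WT IM and 11.2 in *ros1* IM, that of *MYB75* to *MYBL2* was 6.20 and 2.17, and that of *TT8* to *MYBL2* was 1.77 and 0.204. Relative to this inhibitor, *MYB90* was thus higher in *ros1* IM, while *MYB75* and *TT8* were lower.

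The response in *ros1* minus the response in wild type put these differences on 1 scale. The WT and *ros1* responses have no sample in common. Of the 7 regulators with 4 values 5 had a smaller response in *ros1* and 0 a larger one, where 12.8% of 16841 genes lay below the threshold and 9.36% above it. Here a gene passed if its FPKM reached 1 in any of the 4 groups. *TT8* and *GL3* passed through their wild-type values alone, and their *ros1* responses lay under the filter. *TT8* differed by -3.57 (rank 62 from the lowest), *MYBL2* by -2.89 (rank 169), *CPC* by -2.12 (rank 501) and *MYB75* by -1.40. The value of *TT8* thus rests on *ros1* levels of 0.927 and 0.511 FPKM. Without a pseudocount the difference of *MYB75* was -0.97 and no longer past the threshold. *MYB90* differed by -1.002, just past the threshold, and by 0.34 in the opposite direction without a pseudocount, because its control level in *ros1* was only 0.257 FPKM. *TTG1* (-0.75) and *GL3* (-0.05) were within the threshold. The early enzymes had a median of -4.09, with 5 of 5 past the threshold, and the late enzymes a median of -3.0, with 10 of 11. *TT8* (-3.57), *MYBL2* (-2.89) and *CPC* (-2.12) lay nearer to these medians than *MYB75* and *MYB90* did.

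Genes with the most similar pattern over the 4 groups were searched among 10464 genes, by the root mean square distance of log2(FPKM + 1) about each gene's own mean. Nearest to *TT8* were AT1G58225 (distance 0.081), the anthocyanin glucosyltransferase *UGT75C1* (0.16) and the galactinol synthase *GolS2* (0.19). Nearest to *CPC* was *UGT78D2*, the flavonoid 3-O-glucosyltransferase (0.062), followed by AT1G01250 (0.12) and AT5G22020 (0.15). An enzyme of the pathway thus stood among the 3 nearest genes of 1 bHLH gene and of 1 inhibitor. Nearest to *MYBL2* were *OZF2* (0.11), *DYL1* (0.16) and AT2G46940 (0.18). For *MYB75* and *MYB90* the distances were larger, as were their own ranges over the groups (5.45 and 6.30, against 4.36 for *TT8*), and the distance is not scaled by the range. The closest were AT5G15500 (0.33), AT5G43150 (0.42) and AT1G57590 (0.44) for *MYB75*, and AT2G43580 (0.51), AT5G50360 (0.53) and AT1G73040 (0.54) for *MYB90*. For *GL3*, whose own range was small, they were AT5G06470 (0.0085), *IDL4* (0.022) and AT2G39280 (0.040). These distances rest on 4 pooled values and carry no test.

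Further genes of the same complexes and of their inhibitors were mixed. Of 12 other genes that work with or under MYB-bHLH-WD40 complexes, 8 passed the filter in WT IM against WT control, with 2 higher and 2 lower, beside 11.6% and 15.6% of all genes. The WRKY gene *TTG2*, a target of the complexes in trichomes and seed coat, stood at 3.99, 18.6, 1.16 and 0.719 FPKM in the groups in the order used above, and so was high in WT IM alone. *MYB5*, a seed coat and trichome MYB, stood at 0.995, 3.02, 0.172 and 0.771, and passed the filter through WT IM alone. The trichome MYB *GL1* was lower in WT IM (4.61 to 0.488 FPKM, and 0.992 in *ros1* control), as was the bHLH gene *MYC1* (8.53 to 2.03, and 7.02 in *ros1* control). In *ros1* IM *MYC1* stood at 0.169 and *GL1* was listed at 0. *GL1* passed the filter through WT control alone. In *ros1* control 4 of the 7 of these genes that passed were lower than in WT control and 0 higher, beside 8.02% and 4.69% of all genes. Of these 4, *GL1* and *MYB23* (5.44 against 0.220 FPKM) passed through WT control alone. In *ros1* IM 3 of 5 were lower than in WT IM, beside 18.9%. These 3, *TTG2*, *MYB5* and *MYC1*, all passed through WT IM alone, the group where they were high. In *ros1* IM against *ros1* control 1 of 4 was lower, beside 23.4%, namely *MYC1*, which passed through *ros1* control alone.

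The other R3-MYB genes split in WT IM, where 1 of 6 was higher and 3 were lower, beside 11.6% and 15.6% of all genes. *ETC3* (*CPL3*) followed *CPC*, at 9.44, 58.5, 3.71 and 2.94 FPKM in the 4 groups. *TRY*, an inhibitor of trichome formation, went the other way, from 8.76 in WT control to 0.642 in WT IM, as did *ETC2*, from 4.81 to 1.30, and *TCL1*, from 1.29 to 0.067. *TRY* and *TCL1* passed the filter through WT control alone. All 3 of these genes with a value in *ros1* IM were lower there than in WT IM, among them *TCL2*, at 12.4 against 1.52 FPKM, beside 18.9% of all genes. Against *ros1* control 1 of the 2 that passed was lower, beside 23.4%, and in *ros1* control against WT control 1 of 6 was higher and 2 were lower, beside 4.69% and 8.02%. *ETC2*, at 0.869 FPKM in *ros1* control and listed at 0 in *ros1* IM, was among the lower genes against both wild-type groups. It passed the filter through the wild-type group alone each time.

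Other known repressors of the pathway had no single direction with imazethapyr in either genotype. Of 10 such genes 3 were higher and 2 lower in WT IM against WT control, beside 11.6% and 15.6% of all genes, and 4 were higher and 2 lower in *ros1* IM against *ros1* control, beside 18.0% and 23.4%. The lower counts are near the share of all genes in both. The NAC gene *ANAC032* stood at 7.25, 54.2, 5.93 and 68.2 FPKM in the 4 groups, and *MYB7* at 1.496, 14.5, 2.69 and 14.2. Both were high in either genotype with imazethapyr. *SPL9*, whose protein hinders the MYB-bHLH-WD40 complex, stood at 9.59, 3.51, 9.16 and 0.495 FPKM, and *HAT1* at 12.5, 2.87, 3.81 and 1.40, so both were low with imazethapyr. Wherever *ros1* IM was compared, *SPL9* passed the filter through the other group alone. In *ros1* control against WT control 0 were higher and 2 lower, beside 4.69% and 8.02%, and in *ros1* IM against WT IM 0 were higher and 2 lower, beside 11.2% and 18.9%. The lower ones in *ros1* IM against WT IM were *SPL9* and *MYB4* (28.9 against 12.7 FPKM), and *MYBL2* was lower in that comparison too. Of 11 light signalling genes 2 were higher and 0 lower in WT IM, beside 11.6% and 15.6%, namely *PIF3* from 8.64 to 23.1 FPKM and *PIF4* from 2.57 to 6.76, while *HY5*, whose protein binds G-boxes of flavonoid promoters, stood at 15.0, 13.8, 3.80 and 9.68 in the 4 groups. In *ros1* IM against *ros1* control 3 of 9 were higher and 2 lower, beside 18.0% and 23.4%. In *ros1* IM against WT IM 1 of 9 was lower, beside 18.9%, which was *PIF4*, at 6.76 against 1.06 FPKM, and in *ros1* control against WT control 1 of 11 was higher and 1 lower, beside 4.69% and 8.02%.

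The 250 bases before the annotated start of each regulator were searched on both strands for the G-box CACGTG, the E-box CANNTG (which every G-box also matches) and the MYB core CNGTT. bHLH proteins bind E-boxes, and MYB proteins bind the core. A match is a string of letters and not a site that was seen to be bound. The windows of *MYB90*, *MYB114*, *TT8*, *MYB75* and *MYBL2* in TAIR10.1 (RefSeq) are shown, with E-boxes in capitals. *MYB90* and *MYB114* hold the G-boxes, and *TT8*, *MYB75* and *MYBL2* are, with *MYB90*, the 4 regulators with the largest differences in WT IM.
MYB90, chr1:24763691-24763940, plus strand: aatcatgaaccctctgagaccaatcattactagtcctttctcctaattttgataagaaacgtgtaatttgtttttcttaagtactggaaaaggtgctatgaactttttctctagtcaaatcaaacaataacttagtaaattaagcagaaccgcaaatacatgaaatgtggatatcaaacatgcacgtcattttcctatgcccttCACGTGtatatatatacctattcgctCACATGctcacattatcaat
MYB114, chr1:24757048-24757297, plus strand: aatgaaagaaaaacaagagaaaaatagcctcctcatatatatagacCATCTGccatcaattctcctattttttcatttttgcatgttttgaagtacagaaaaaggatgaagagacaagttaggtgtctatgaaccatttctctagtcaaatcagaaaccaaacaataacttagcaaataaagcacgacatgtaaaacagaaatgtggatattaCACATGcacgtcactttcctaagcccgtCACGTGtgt
TT8, chr4:6181631-6181880, plus strand: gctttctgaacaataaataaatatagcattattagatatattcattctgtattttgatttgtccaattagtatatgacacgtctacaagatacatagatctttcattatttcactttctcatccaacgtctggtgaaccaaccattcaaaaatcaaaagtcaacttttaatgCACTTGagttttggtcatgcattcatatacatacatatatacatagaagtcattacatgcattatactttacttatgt
MYB75, chr1:21235293-21235542, minus strand: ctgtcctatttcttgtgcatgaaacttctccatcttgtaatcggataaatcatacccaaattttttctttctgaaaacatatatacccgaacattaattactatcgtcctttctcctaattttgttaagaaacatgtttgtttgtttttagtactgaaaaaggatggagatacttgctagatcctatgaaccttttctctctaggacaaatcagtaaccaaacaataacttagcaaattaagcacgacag
MYBL2, chr1:26796533-26796782, minus strand: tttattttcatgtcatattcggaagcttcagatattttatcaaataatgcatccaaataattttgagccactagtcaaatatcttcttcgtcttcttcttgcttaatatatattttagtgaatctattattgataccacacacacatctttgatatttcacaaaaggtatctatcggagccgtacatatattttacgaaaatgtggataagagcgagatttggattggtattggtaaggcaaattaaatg
A G-box stood at -46 to -41 of *MYB90* and at -9 to -4 of *MYB114*, counted back from the annotated start. Thus 2 of the 10 windows held one, where 6.49% of 27443 windows of all genes did. The bases just before the G-box are nearly the same in *MYB90* and *MYB114*, so these 2 windows are not independent of each other. An E-box was found in 6 of 10 windows against 55.3% of all, and a MYB core in 5 of 10 against 70.2% of all. *CPC* had 3 MYB cores, as 20.1% of all windows had at least that many. The windows of *MYB75*, *MYBL2* and *EGL3* held none of the 3 motifs. The 5 regulators called higher in WT IM therefore had no motif in common among these 3 in these windows. The starts depend on the annotation: *MYB75* starts at base 21235292 in TAIR10.1 and at 21235137 in the deposited tables.

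**Figure D4:**
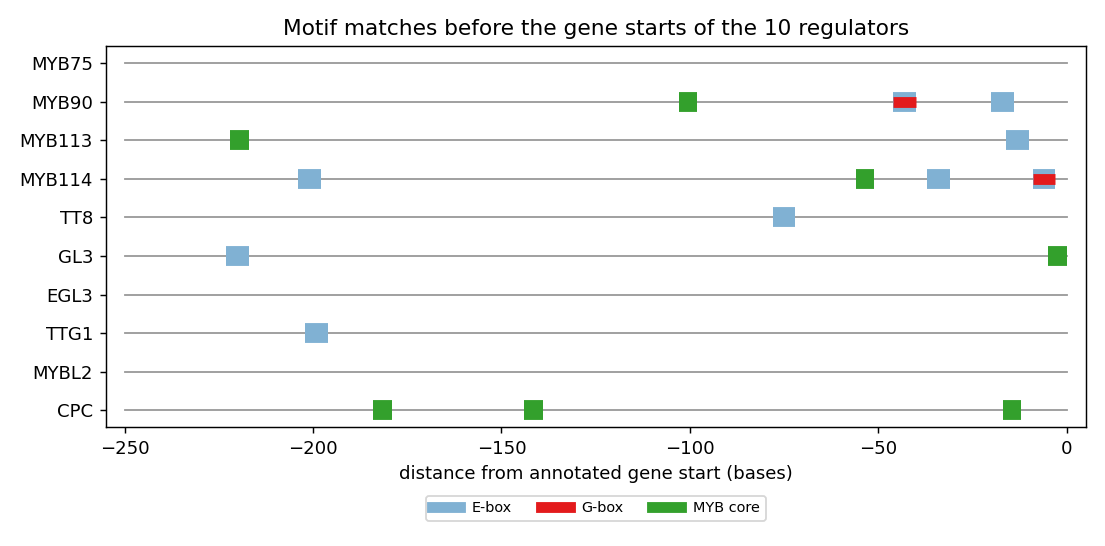
Position of G-box, E-box and MYB core matches (horizontal axis, bases from the annotated gene start, both strands) in the 250 bases before each of the 10 regulators; a G-box is drawn inside the E-box it also matches. The G-boxes are in *MYB90* and *MYB114* alone, and the lines of *MYB75*, *MYBL2* and *EGL3* are empty.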

How the data were processed

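RNA-seq of 8 libraries (entire rosettes, Illumina HiSeq, 100-base single-end reads, TruSeq kit) was processed by the authors. Per the labels and the study's methods, FastQC 0.10.1 served for quality control and the FASTX-Toolkit for trimming, and TopHat2 with Bowtie2 aligned the reads to TAIR10. Cufflinks and Cuffdiff gave the deposited FPKM, 1 value per gene and group pooled over 2 libraries. Their version and the annotation release are not given in the sources used here. The tables also hold the authors' fold changes, test statistics, p-values and q-values, which were not used. The study's count of mapped reads per library was not used either. By the study's account, a smaller share of reads aligned to the reference in *ros1* than in wild type. This gap runs along genotype, and its part in the results was not tested.

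FPKM values were read from 7 tables. A gene and group held by several tables had the same value in all of them (157256 pairs, 0 unequal). One all-gene table covers 34133 genes for *ros1* control against WT control, but breaks off on chromosome 5 for WT IM against WT control (31402 genes), so 1518 WT IM values come from tables of selected genes, as do all 17284 *ros1* IM values.

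Differences of log2(FPKM + 1) were computed in Python 3.11.15 (pandas 2.3.3, numpy 2.4.6) for genes whose FPKM reached 1 in a group compared, and called past 1. No test was run, since the tables hold 1 pooled value per group and none per library. Alternatives were a pseudocount of 0.1 or none, no filter or an FPKM of at least 5, 1.5-fold and 4-fold thresholds, and centring on the median. The comparisons share groups: each control group and each herbicide group enters 2 of the 4 comparisons.

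All 10 regulators are named, and of each further gene list at most 4 genes per comparison with the largest differences. *TT7*, *3AT2* and *UF3GT* in *ros1*, and *BGLU10* in *ros1* IM against WT IM, were named in addition after their values were seen. For each regulator with 4 values and a range of at least 1, the 3 genes nearest in pattern are named. The regulators and lists were chosen with earlier results of these data known.

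Sequences and positions are from TAIR10.1 (RefSeq), while the gaps between the activator genes were taken from the gene bounds in the deposited data. Of 34133 identifiers 31416 match a RefSeq locus tag, among them all 10 regulators, and 27978 of 27978 loci that could be compared overlapped. Coding sequences were aligned with Biopython 1.88, in place of the protein alignment first intended.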

Additional observations from a re-analysis of the deposited data

How the results depend on the processing

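Of 251 differences of single regulators recomputed under 7 alternatives, 221 kept their direction and their side of the threshold, 29 changed their side and 1 reversed. The reversed one was the response difference of *MYB90*, which was 0.34 without a pseudocount. The 221 include 38 without a filter and 23 with an FPKM of at least 5. A filter only sets which genes are tested, so these were the same by construction. The fold thresholds could change a side but not a direction. In *ros1* control against WT control the number of lower regulators was 1, and 3 with a pseudocount of 0.1, 4 without one and 4 at a 1.5-fold threshold, where 1 was also higher. Of all genes, 10.3%, 9.68% and 15.4% were lower under these settings in turn, beside 8.02% in the main setting. Regulators lower in WT IM than in WT control numbered 0 with an FPKM of at least 5 and 0 at a 4-fold threshold, since *EGL3* was then not tested or not past it. In *ros1* IM against *ros1* control, 1 was lower at a 1.5-fold threshold (*TTG1*) and 1 was higher at a 4-fold threshold (*MYB90*). In *ros1* IM against WT IM, *GL3* joined the lower regulators with a pseudocount of 0.1, without one and at 1.5-fold, making 6 each time. Of all genes, 22.6%, 22.2% and 29.6% were lower under these settings in turn. At 4-fold *MYB90* dropped out, leaving 4, beside 5.94% of all genes. A smaller response in *ros1* was called for 3 regulators without a pseudocount and for 3 at a 4-fold threshold, *MYB75* and *MYB90* dropping out of both. Of all genes, 18.6% had a smaller response without a pseudocount and 3.45% at the 4-fold threshold, beside 12.8% in the main setting. *MYB113* and *MYB114*, short of the threshold in WT IM, passed it at 1.45 and 2.07 with a pseudocount of 0.1. No paired analysis was possible because the tables hold 1 pooled value per group, and for the same reason no library could be left out. The tables give no depth per library, so no counting interval stands beside the low values. Over all genes, the share called higher ran from 9.73% to 30.6% by comparison at a 1.5-fold threshold and from 1.26% to 6.26% at a 4-fold one, and the share called lower from 15.4% to 32.6% and from 2.13% to 10.4%, beside 4.69% to 18.0% and 8.02% to 23.4% at 2-fold.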
